A study of Homo sapiens with 3 samples.

Results

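The genes described here are 41 human genes of the unfolded protein response and of the amino acid stress response, measured in HT1080, an established human fibrosarcoma cell line. They are a list of named genes of both pathways, drawn up with earlier results of these data known, so their shares beside those of all genes are a description. By role they were split into 17 chaperone, folding and degradation genes of the endoplasmic reticulum (ER), 19 genes driven by the transcription factor ATF4, and 5 sensors and first-line transcription factors. A probe set, the group of array probes that gives 1 signal, was used where the platform's annotation gives it 1 gene symbol. By that rule 40 of the 41 genes were measured, out of 19775 genes on the arrays, and the brightest probe set stood for each gene. The ubiquitin ligase gene SYVN1 was the 1 gene left out, since its probe set is also annotated to a microRNA. That probe set read 329 in RECK/4NQ, 255 in RECK and 371 in Zeo. The 40 genes had 85 probe sets, and 27 of them had more than 1.

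RNA was taken from 3 stable lines, with 1 array per line. RECK/4NQ cells carry a vector for a mutant of RECK in which 4 N-glycosylated asparagines are exchanged for glutamine, RECK cells carry the vector for unmutated RECK, and Zeo cells are mock-transfected. RECK is a membrane-anchored glycoprotein that restrains matrix metalloproteinases. All 3 lines were grown in 10% serum with Zeocin, the selection drug, at 50 µg/mL. Whether each line is 1 clone or a pool is not in the labels, so differences between lines that come with cloning cannot be told apart from those that come with the transfected gene. With 1 array per line there is no replicate error, no test and no p-value, and every value below compares 1 array with another.

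Proteins that fold in the ER are helped by chaperones, and glycoproteins use the lectin chaperones calreticulin and calnexin. When unfolded proteins build up, the ER membrane sensors PERK (EIF2AK3), IRE1 (ERN1) and ATF6 are activated, and ATF6 and spliced XBP1 switch on chaperone and degradation genes. PERK and the amino acid sensor GCN2 phosphorylate the translation factor eIF2, which favours translation of ATF4, and ATF4 switches on genes of amino acid synthesis, tRNA charging and stress signalling. Much of this control acts on proteins or on splicing, which these probe sets do not measure.

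The DNA elements that these factors bind are shown first, since they are what the ER and ATF4 branches are known by. RefSeq promoter windows of GRCh38.p14, from 250 bases before to 50 bases after a start site, were found for 39 of the 41 genes, as 57 windows. SHMT2 and NUPR1 had none. In each window 4 motifs were searched on both strands. Only exact matches to the fixed bases were counted, so a window may hold near matches that are not listed. The ER stress element (ERSE), known to be bound by ATF6 with NF-Y, was searched as CCAAT and CCACG with any 9 bases between them. It was found in the windows of 6 of 17 ER genes (35.3%) and of 1 of 5 sensors, against 0.0916% of all 27305 genes. Several of these genes are textbook carriers of the element, so the share is a description of a chosen list. The 8 copies are given with 6 bases on either side, read on the strand of the motif, with its fixed bases in capitals:
PDIA6 chr2:10812847-10812877 (-): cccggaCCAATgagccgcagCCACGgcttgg
CANX chr5:179698772-179698802 (+): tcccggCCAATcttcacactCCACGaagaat
HSPA5 chr9:125241385-125241415 (-): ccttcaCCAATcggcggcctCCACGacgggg
HSP90B1 chr12:103930210-103930240 (+): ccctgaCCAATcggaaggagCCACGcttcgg
HSP90B1 chr12:103930315-103930345 (-): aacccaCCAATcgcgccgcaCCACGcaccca
CALR chr19:12938378-12938408 (-): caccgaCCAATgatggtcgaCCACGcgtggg
XBP1 chr22:28800597-28800627 (-): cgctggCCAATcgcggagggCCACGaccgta
CRELD2 chr22:49918548-49918578 (-): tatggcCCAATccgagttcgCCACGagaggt
A second form, ERSE-II, searched as ATTGG and CCACG with any 1 base between them, was found in the windows of 3 ER genes (17.6%), against 0.0696% of all genes:
HYOU1 chr11:119057374-119057396 (+): cctgggATTGGaCCACGtcacgg
HYOU1 chr11:119057268-119057290 (+): gtactcATTGGaCCACGtcccag
HERPUD1 chr16:56932019-56932041 (+): acgccgATTGGgCCACGttggga
SDF2L1 chr22:21642108-21642130 (-): gttttgATTGGtCCACGcttccg
The element of XBP1 and ATF6 (UPRE), searched as TGACG followed directly by TGG, was found in 1 member, HYOU1, where it overlaps an ERSE-II copy, and in 0.927% of all genes. The C/EBP-ATF response element (CARE), to which ATF4 binds with C/EBP partners, was searched as TGATG, any base and AA. It was found in the windows of 4 of 17 ATF4-driven genes (23.5%) and of the ER gene HERPUD1, against 4.46% of all genes:
ATF3 chr1:212565210-212565229 (+): tcaggaTGATGgAAggctgt
ASNS chr7:97872463-97872482 (-): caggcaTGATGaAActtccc
CHAC1 chr15:40953256-40953275 (-): caggagTGATGcAAcggcag
HERPUD1 chr16:56931960-56931979 (-): acgggcTGATGcAAcccgcc
CEBPG chr19:33374065-33374084 (+): ggcgtcTGATGcAAcctgcc
For 4 genes on which the values below turn, the 250 bases before the start site are given whole, with motif copies on either strand in capitals. By exact match, HERPUD1 holds both a CARE and an ERSE-II copy, HSPA5 an ERSE and ASNS a CARE, and the DDIT4 window matched none of the searched letters.
HERPUD1 chr16:56931892-56932141 (+): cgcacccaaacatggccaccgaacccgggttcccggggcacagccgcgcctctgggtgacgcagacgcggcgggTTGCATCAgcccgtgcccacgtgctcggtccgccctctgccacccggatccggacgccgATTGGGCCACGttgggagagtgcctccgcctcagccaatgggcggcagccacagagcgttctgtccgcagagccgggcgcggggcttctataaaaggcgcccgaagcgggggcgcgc
HSPA5 chr9:125241344-125241593 (-): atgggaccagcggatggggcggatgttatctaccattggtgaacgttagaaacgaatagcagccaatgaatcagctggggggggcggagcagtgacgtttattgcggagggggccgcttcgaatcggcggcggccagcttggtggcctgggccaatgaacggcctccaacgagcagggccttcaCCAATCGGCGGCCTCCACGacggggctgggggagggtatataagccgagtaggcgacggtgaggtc
ASNS chr7:97872409-97872658 (-): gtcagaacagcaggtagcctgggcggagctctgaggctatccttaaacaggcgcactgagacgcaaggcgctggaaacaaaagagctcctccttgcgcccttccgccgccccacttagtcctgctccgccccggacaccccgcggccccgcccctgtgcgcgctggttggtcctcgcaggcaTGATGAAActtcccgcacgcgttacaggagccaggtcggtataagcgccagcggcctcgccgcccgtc
DDIT4 chr10:72273674-72273923 (+): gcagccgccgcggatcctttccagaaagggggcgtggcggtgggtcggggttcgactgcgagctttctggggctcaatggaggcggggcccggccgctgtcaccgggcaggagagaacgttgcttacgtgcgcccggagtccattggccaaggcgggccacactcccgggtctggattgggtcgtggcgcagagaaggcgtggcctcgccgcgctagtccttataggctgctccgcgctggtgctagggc

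The arrays were similar in quality. The GAPDH 3'/5' ratio, which rises as RNA degrades, ranged from 0.923 to 0.979. Low signals were raised to 12.2, which 40% of all signals lay below and which is called the floor here, and 39 of the 40 genes reached it on every array. Over the 14289 genes whose mean level reached the floor, the median log2 ratio of RECK/4NQ over Zeo was -0.12, that of RECK over Zeo -0.20, and that of RECK/4NQ over RECK 0.06. Ratios of single genes below keep this shift, while list medians have it subtracted. As an error scale, the spread of a gene's ratio is the scaled median absolute deviation of ratios among the 1000 genes closest to it in signal, so it includes true differences between the lines. RECK itself read 442 in RECK/4NQ, 387 in RECK and 264 in Zeo by its brightest probe set, 1.68-fold and 1.47-fold above Zeo and not past 2-fold. This is 1 of 5 RECK probe sets and a shared one (ID ending in _x_at), and the readings of the others are not given here. Whether the RECK probes lie within the transfected sequence is not known. Of the markers of other cell types, epithelial EPCAM, KRT19 and CLDN4 were below the floor on every array, CDH1 reached 15.6 in RECK/4NQ, and all 8 mesenchymal markers were above the floor. The summed mesenchymal signal was 33492 in RECK/4NQ, 33031 in RECK and 31330 in Zeo, carried by VIM and LGALS1. Among these markers S100A4 read 57.6, 117 and 94.4, 2.02-fold lower in RECK/4NQ than in RECK, and CAV1 474, 691 and 577. Leukocyte markers summed to 46.3, 43.2 and 68.8 on the same arrays, mainly through CD3E, and endothelial markers to 86.8, 88.2 and 118, mainly through PECAM1. The part of these markers in the results was not tested.

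Set against RECK cells, RECK/4NQ cells had higher signals for most of the ER genes, ATF4-driven genes and sensors listed here. Log2 ratios were above 0 for 11 of 16 ER genes, 15 of 19 ATF4-driven genes and 4 of 5 sensors. Of all 14289 genes whose mean level reached the floor, 7823 were above 0. Against the median of all genes, 10, 14 and 4 of these genes were above it. Further ER genes outside the list, described below, had a median of -0.02 relative to all genes. Of the 40 genes, 3 were at least 2-fold higher, 2 were at least 2-fold lower and 35 were not past 2-fold. Among all genes 10.3% were past 2-fold, 4.48% higher and 5.77% lower, so the count at 2-fold is close to the background. The median log2 ratio was 0.33 above that of all genes, and 0.23 above genes of like level. At 1.5-fold, 12 of 40 were higher (30%) and 3 lower (7.5%), where 26.9% of all genes passed, 13.3% higher and 13.7% lower. By role the median relative to all genes was 0.32 over 16 ER genes, 0.20 over 19 ATF4-driven genes and 0.59 over 5 sensors. The sensor median is the ratio of ATF6 alone, and a second ATF6 probe set above the floor gave a log2 ratio of -0.32. Another sensor with a ratio above 0, EIF2AK3, was below the floor in RECK.

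The stress regulator DDIT4, which restrains the growth kinase mTORC1, had the highest ratio. Its signal was 1394 in RECK/4NQ, 275 in RECK and 579 in Zeo. RECK/4NQ was 5.07-fold above RECK, at 5.52 spreads from the median of all genes, and 2.41-fold above Zeo, while RECK was 2.11-fold below Zeo. DDIT4 has a single probe set, and thus no second reading on the array. The transcription factor ATF3, an early stress-induced repressor, gave the opposite order, with 54.8 in RECK/4NQ, 327 in RECK and 118 in Zeo. A second ATF3 probe set read 69.3, 140 and 137 on these arrays, and the last 60.9, 49.6 and 53.1. The first 2 of the 3 place RECK/4NQ below RECK, by 5.97-fold and 2.02-fold, and the last does not. RECK was 2.77-fold above Zeo by the first and 1.02-fold by the second.

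The secreted glycoprotein gene STC2, an ER stress target, was the other gene past 2-fold below RECK. It read 210 in RECK/4NQ, 450 in RECK and 412 in Zeo, and by its second probe set 50.5, 101 and 74.9. Both probe sets put RECK/4NQ lowest, at 2.15-fold and 2.01-fold below RECK. SESN2, a leucine sensor that restrains mTORC1, had the same order without reaching 2-fold, at 351 in RECK/4NQ, 579 in RECK and 451 in Zeo. Its second probe set read 234, 460 and 366.

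**Figure D1:**
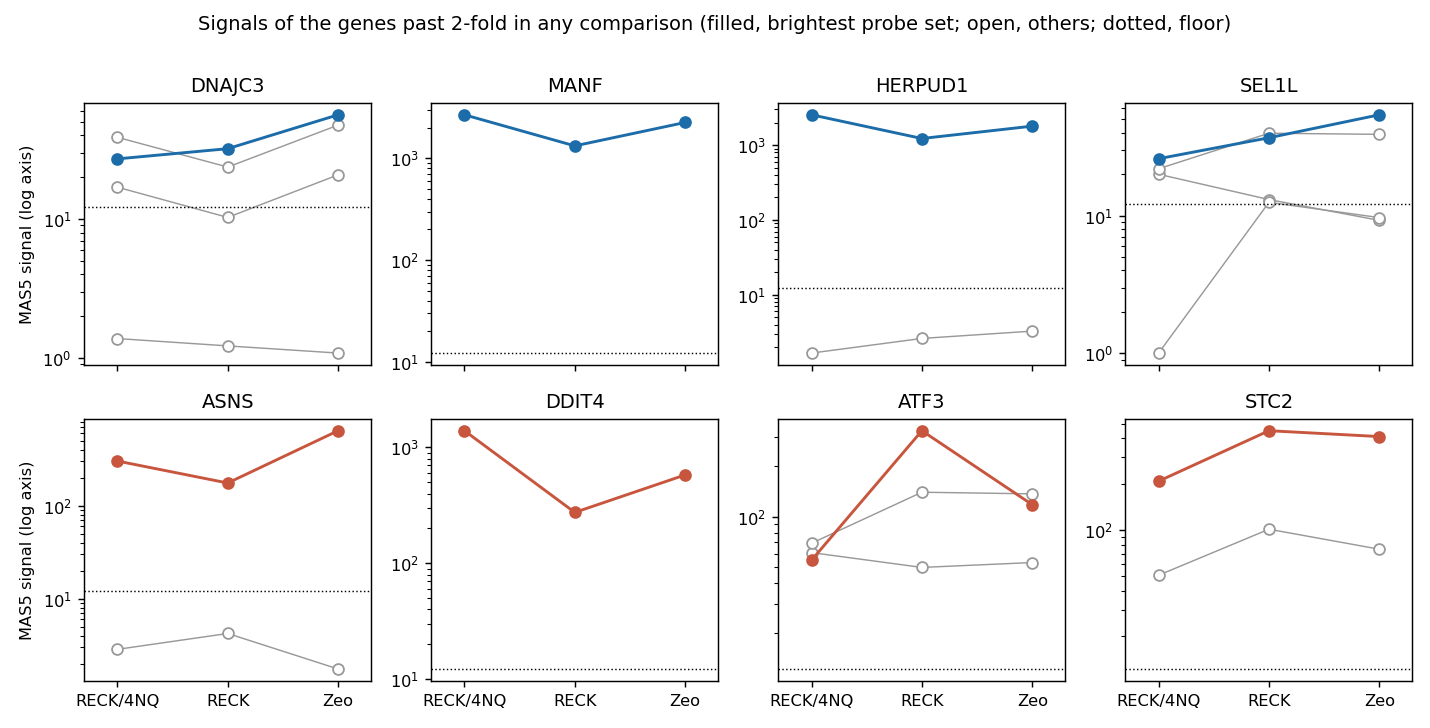
MAS5 signal (log axis) on the RECK/4NQ, RECK and Zeo arrays for the 8 genes past 2-fold in any comparison; filled points are the brightest probe set, open points other probe sets, and the dotted line the floor of 12.2. DDIT4 reads 1394 in RECK/4NQ and 275 in RECK, and ATF3 reads 54.8 and 327.

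Among ER genes, HERPUD1, MANF and SDF2L1 had the largest ratios of RECK/4NQ over RECK. HERPUD1, a membrane protein that helps clear misfolded proteins from the ER, read 2542 in RECK/4NQ, 1225 in RECK and 1792 in Zeo, which is 2.07-fold higher in RECK/4NQ than in RECK. MANF, a secreted ER stress protein, read 2673, 1324 and 2248 on these arrays, 2.02-fold higher. SDF2L1, a partner of the chaperone BiP, read 1387, 700 and 995, 1.98-fold higher and just short of 2-fold. MANF and SDF2L1 have 1 probe set each, and the second HERPUD1 probe set was below the floor on every array. None of the 3 genes thus has a second reading. In all 3 genes the RECK array was the lowest, RECK/4NQ was the highest, and the ratio lay 2.55 to 2.81 spreads from the median of all genes. Measured from the median of genes of like level, which was higher, the log2 ratios were 0.82 for HERPUD1, 0.79 for MANF and 0.78 for SDF2L1. After quantile normalisation the log2 ratios were 0.90 for HERPUD1, 0.85 for MANF and 0.84 for SDF2L1, so the first 2 no longer reached 2-fold.

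Smaller ratios were seen for the lectin chaperone gene CANX, which read 776 in RECK/4NQ, 515 in RECK and 658 in Zeo, and for HYOU1, a large ER chaperone, at 1583, 1091 and 1690. PDIA6, a disulfide isomerase, read 1525, 1099 and 1792 on these arrays, and its 3 other probe sets also put RECK lowest. The BiP cochaperone DNAJB11 (538, 399 and 526), the secreted ER protein CRELD2 (1402, 1094 and 1446) and the mannosidase-like degradation factor EDEM1 (151, 114 and 167) also had their lowest signal in RECK. The calreticulin gene CALR was nearly level, with 2909 in RECK/4NQ, 2702 in RECK and 2652 in Zeo.

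HSPA5, which encodes BiP, the main ER chaperone and the usual readout of ER stress, did not follow this order. Its brightest probe set read 922 in RECK/4NQ, 1141 in RECK and 968 in Zeo, a log2 ratio of -0.31 for RECK/4NQ over RECK. Its second probe set read 79.5, 49.0 and 102, in the opposite direction. The disulfide isomerase PDIA4 was similarly split, at 417, 437 and 496 by its brightest probe set and 342, 224 and 284 by the other. DNAJB9, DNAJC3, HSP90B1 and SEL1L had dim probe sets, with 56.3 as the highest signal of the brightest. For HSP90B1, the ER form of HSP90, the signals were 34.8 in RECK/4NQ, 34.0 in RECK and 49.1 in Zeo, and by a second probe set 34.4, 5.28 and 41.1, below the floor in RECK. A brighter probe set that names HSP90B1 and a microRNA, and so was not counted, read 296, 215 and 403. DNAJB9, a cochaperone that holds IRE1 inactive, read 24.5, 31.3 and 39.2.

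**Figure D2:**
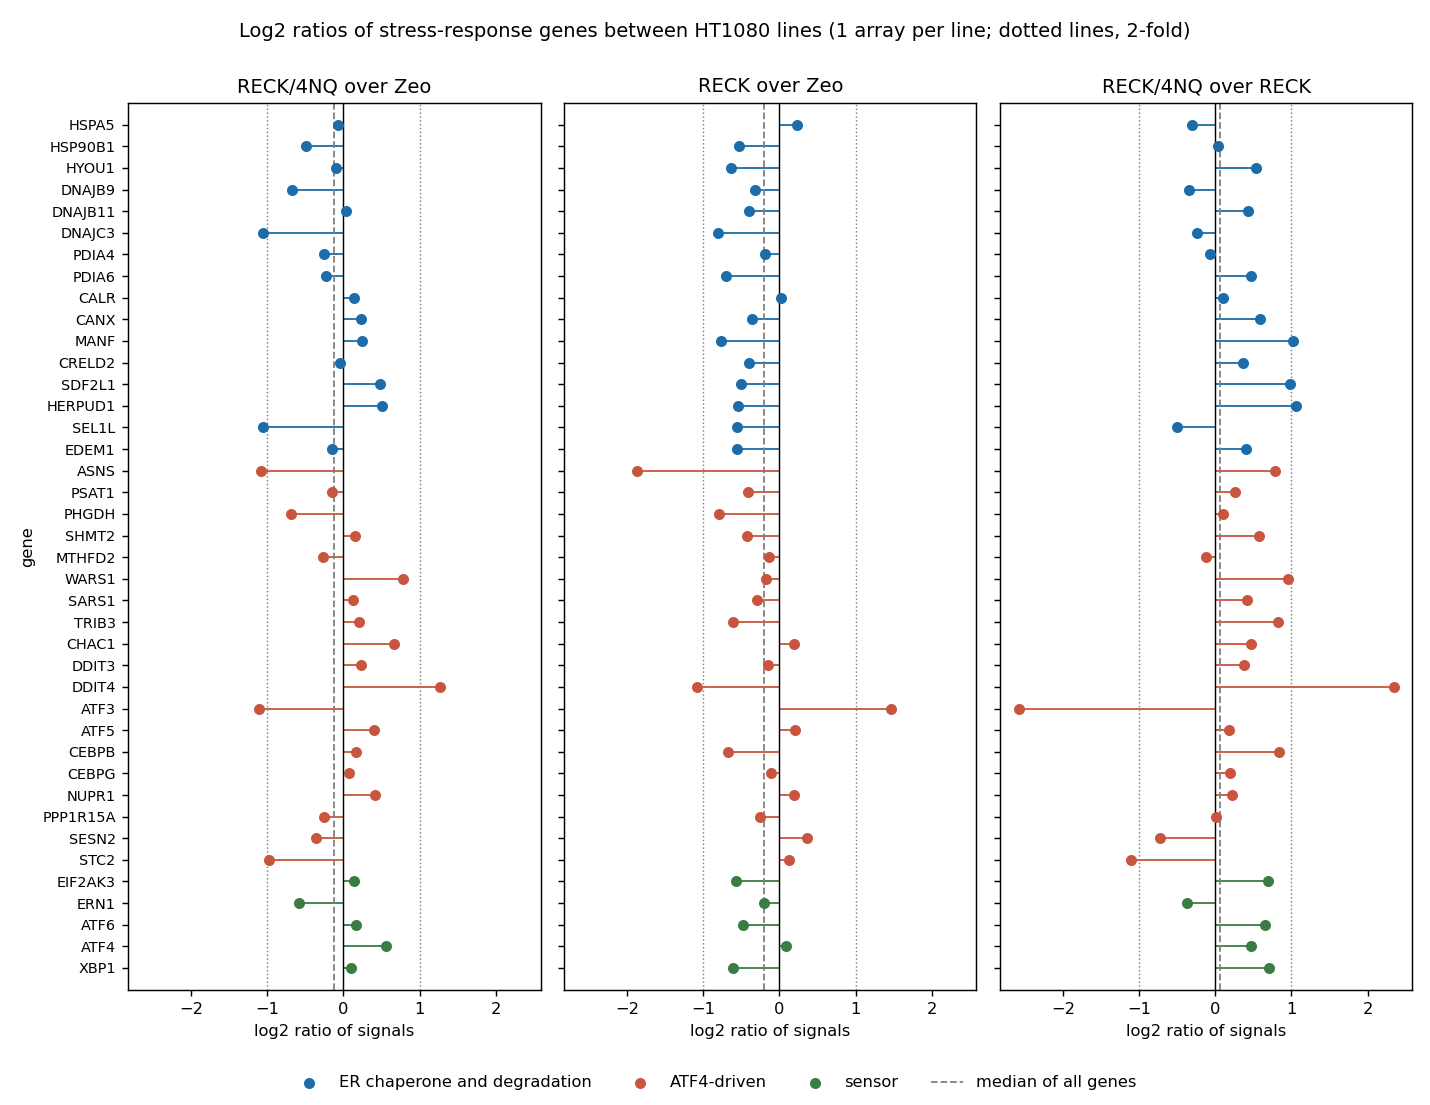
Log2 ratio of signals for each of the 40 genes in RECK/4NQ over Zeo, RECK over Zeo and RECK/4NQ over RECK, coloured by role, with the median of all genes dashed and 2-fold dotted. In the right panel 11 of 16 ER genes, 15 of 19 ATF4-driven genes and 4 of 5 sensors lie above 0, and in the middle panel 2, 6 and 1 do. Of all 14289 genes whose mean level reached the floor, 7823 were above 0 in RECK/4NQ over RECK and 4936 in RECK over Zeo.

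Among ATF4-driven genes other than DDIT4, the largest ratio of RECK/4NQ over RECK was that of WARS1, tryptophanyl-tRNA synthetase. It read 1035 in RECK/4NQ, 536 in RECK and 603 in Zeo, 1.93-fold higher, and its second probe set read 849, 572 and 602. CEBPB, a transcription factor that pairs with ATF4, read 7822, 4368 and 6990 on these arrays, 1.79-fold higher in RECK/4NQ than in RECK. That lay 2.57 spreads from the median of all genes, and the log2 ratio was 0.63 above genes of like level. TRIB3, a pseudokinase induced by ATF4, read 2202, 1247 and 1909, and its second probe set 242, 164 and 246. In CEBPB and TRIB3 the RECK array stood below the other two, which were close to each other. All 3 probe sets of SHMT2, the mitochondrial serine hydroxymethyltransferase, gave this order as well, with 4754, 3200 and 4277 by the brightest.

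Other ATF4-driven genes had smaller ratios of RECK/4NQ over RECK by their brightest probe set. The eIF2 phosphatase subunit PPP1R15A read 1147 in RECK/4NQ, 1143 in RECK and 1367 in Zeo, and by its second probe set 803, 632 and 792. The folate enzyme MTHFD2 read 540, 590 and 651. CEBPG, ATF5 and NUPR1 had log2 ratios between 0.18 and 0.22, and the pro-apoptotic factor DDIT3 (CHOP), the seryl-tRNA synthetase gene SARS1 and the glutathione-degrading enzyme gene CHAC1 between 0.38 and 0.46. For ATF5 and CEBPG dimmer probe sets read otherwise. One ATF5 probe set read 40.5 in RECK/4NQ, 16.0 in RECK and 42.7 in Zeo, 2.54-fold higher in RECK/4NQ than in RECK, and another 13.0, 13.2 and 31.3. The second CEBPG probe set read 13.4, 21.8 and 55.1, 4.11-fold lower in RECK/4NQ than in Zeo. DDIT3 read 199, 153 and 170, CHAC1 108, 78.4 and 68.4, and SARS1 1447, 1083 and 1331.

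Of the 5 sensor genes, 4 had ratios of RECK/4NQ over RECK above 0, with none past 2-fold. Among all 14289 genes whose mean level reached the floor, 7823 had such ratios above 0. XBP1 read 719 in RECK/4NQ, 440 in RECK and 669 in Zeo, and ATF6 94.7, 60.4 and 84.2. A second ATF6 probe set above the floor read 27.1, 33.8 and 56.2, with RECK/4NQ the lowest. ATF4 itself read 3138, 2267 and 2130, so that RECK/4NQ was above both other lines, by 1.38-fold over RECK and 1.47-fold over Zeo. EIF2AK3 was near the floor, at 19.8, 10.9 and 18.1. ERN1 read 46.1, 59.8 and 69.0 by its brightest probe set, while its other two gave RECK/4NQ over RECK ratios above 0.

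**Figure D3:**
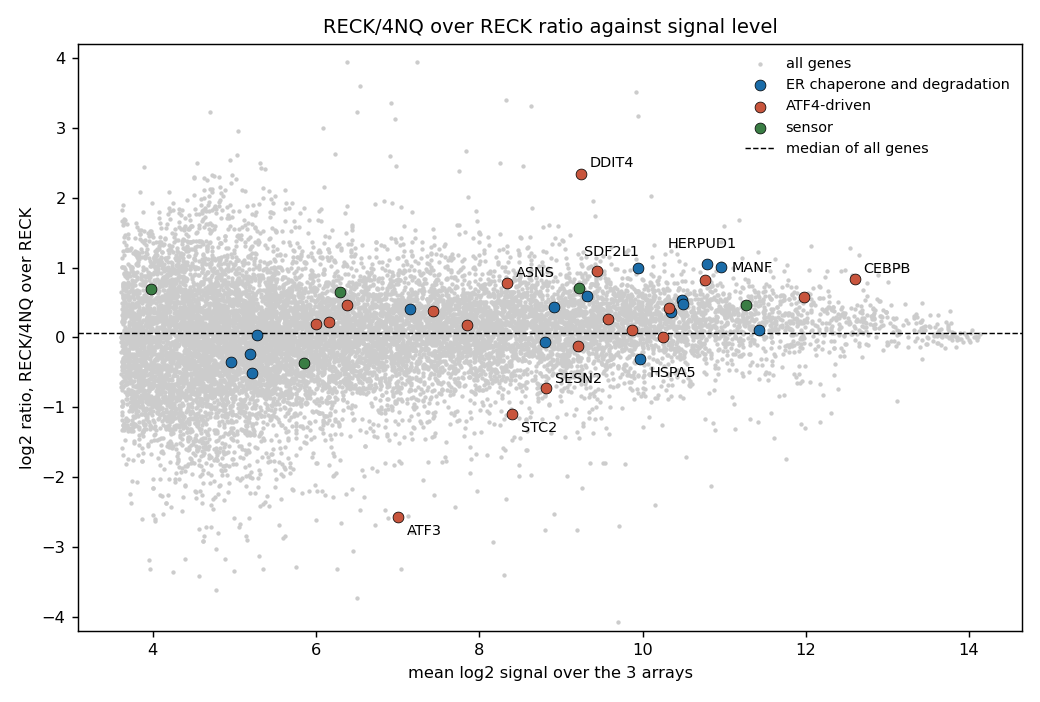
Log2 ratio of RECK/4NQ over RECK against the mean log2 signal of 14285 genes (grey; 4 lie outside the axis) and of the 40 stress-response genes (coloured by role), with the median of all genes dashed. DDIT4 at 2.34 and ATF3 at -2.58 lie at the edges of the cloud, and HERPUD1, MANF and SDF2L1 near 1 at high signal.

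Set against Zeo, RECK cells had lower signals for most of the ER genes, with 1 of 40 genes at least 2-fold higher (ATF3), 2 at least 2-fold lower (ASNS and DDIT4) and 37 not past 2-fold. Among all genes 10.7% were past 2-fold, with 4.03% higher and 6.71% lower. The median over the 40 genes was -0.21 relative to all genes. It was -0.32 over ER genes, 0.02 over ATF4-driven genes, whose relative mean was -0.07, and -0.28 over sensors. At 1.5-fold 1 gene was higher and 10 were lower (25%), where 27.8% of all genes passed, 9.38% higher and 18.4% lower. Of 16 ER genes, 14 had log2 ratios from -0.81 to -0.18, and only CALR, at 0.03, and HSPA5, at 0.24, were above 0. Most other genes were below 0 as well, since 4936 of all 14289 genes were above it. Set against the median of all genes, 3 of the 16 ER genes were above.

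ASNS, which makes asparagine from aspartate and glutamine and is a standard readout of ATF4, gave the largest difference. It read 302 in RECK/4NQ, 175 in RECK and 639 in Zeo. RECK was 3.65-fold below Zeo, at -3.89 spreads from the median of all genes, and RECK/4NQ 2.12-fold below. The Zeo array was thus the highest and RECK the lowest. The second ASNS probe set was below the floor on every array and gives no second reading. The 20 nearest measured genes on chromosome 7, 10 on each side, had a median log2 ratio of -0.08 for RECK over Zeo and -0.26 for RECK/4NQ over Zeo. With these subtracted, the log2 ratios of ASNS were -1.79 and -0.82, the latter short of 2-fold. PHGDH, the first enzyme of serine synthesis, was also highest in Zeo, at 816 in RECK/4NQ, 762 in RECK and 1315 in Zeo. A brighter probe set that names PHGDH with MZT2A and MZT2B, and so was not counted, read 3579, 2924 and 2909, with Zeo the lowest. PSAT1, the next enzyme of that pathway, read 786, 656 and 869.

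Set against Zeo, RECK/4NQ cells had 1 of 40 genes at least 2-fold higher (DDIT4), 4 at least 2-fold lower (ASNS, ATF3, DNAJC3 and SEL1L) and 35 not past 2-fold. Among all genes 9.96% were past 2-fold, 2.82% higher and 7.14% lower. The median over the 40 genes was 0.17 relative to all genes. It was 0.04 over ER genes, 0.24 over ATF4-driven genes and 0.26 over sensors. The mean differed in sign from the median for ER genes, at -0.0044 relative to all genes, and, before the shift was subtracted, for all 40 genes (mean -0.06, median 0.05) and for ATF4-driven genes (mean -0.02, median 0.12). At 1.5-fold 3 genes were higher (7.5%) and 7 lower (17.5%), where 25.7% of all genes passed, 7.9% higher and 17.8% lower. Each pair of comparisons shares an array, so their ratios are not separate observations. In particular, a low reading of the 1 RECK array raises RECK/4NQ over RECK and lowers RECK over Zeo together.

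Both ER genes past 2-fold below Zeo were dim. DNAJC3, a BiP cochaperone that also inhibits PERK, read 27.1 in RECK/4NQ, 32.1 in RECK and 56.3 in Zeo. A second probe set read 38.8, 23.7 and 47.5, and another 17.0, 10.3 and 20.8, so RECK/4NQ was below Zeo in these 3, by 2.08-fold, 1.22-fold and 1.23-fold. SEL1L, the partner of SYVN1 in ER degradation, read 25.9, 36.8 and 54.0, and another probe set 21.9, 39.7 and 38.9. A dimmer SEL1L probe set, below the floor in Zeo, gave a log2 ratio of 0.71 for RECK/4NQ over Zeo, in the opposite direction. Their ratios of RECK/4NQ over Zeo lay at -1.44 spreads for DNAJC3 and -1.51 for SEL1L from the median of all genes.

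The direction of the ratios with Zeo depends on scaling. Among all genes past 2-fold, the share that was higher was 28.3% in RECK/4NQ over Zeo and 37.5% in RECK over Zeo as deposited. With the arrays centred on their medians these shares were 50.9% and 54.2%, and after quantile normalisation 46.1% and 53.8%. With centring, RECK/4NQ over Zeo had WARS1 and DDIT4 past 2-fold higher and none of the 40 lower, where 8.77% of all genes were past 2-fold, 4.46% higher and 4.31% lower. ASNS then had a log2 ratio of -0.85, ATF3 -0.87, DNAJC3 -0.82 and SEL1L -0.83. For RECK over Zeo, ASNS at -1.68 and ATF3 at 1.66 stayed past 2-fold and DDIT4 at -0.89 did not, where 9.94% of all genes were past 2-fold, 5.39% higher and 4.55% lower. For RECK/4NQ over RECK the split was 43.7% as deposited and 47.7% centred, and SDF2L1 joined the genes past 2-fold, where 11% of all genes were past it, 5.23% higher and 5.73% lower. After quantile normalisation 8.58%, 10% and 10.7% of all genes were past 2-fold for RECK/4NQ over Zeo, RECK over Zeo and RECK/4NQ over RECK. With all probe sets of a gene averaged these shares were 7.98%, 8.99% and 8.19%, and without shared probe sets (IDs ending in _s_at or _x_at) 10.2%, 10.9% and 10.5%.

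Across the 39 genes that reached the floor on every array, RECK was the lowest array for 24 (61.5%), RECK/4NQ for 10 and Zeo for 5. Among all 12411 such genes, RECK was the lowest for 46.9%. RECK/4NQ was the highest array for 20 of the 39 (51.3%) and for 30.7% of all genes, and RECK for 4 (10.3%) and 24.0% of all genes. These shares of all genes are not matched for signal level. Of the 40 genes, 27 lay above the median of genes of like level for RECK/4NQ over RECK. For RECK/4NQ over Zeo 21 did, and for RECK over Zeo 14. After median centring RECK/4NQ was the highest for 61.5% of the 39 genes and 44.7% of all, and RECK the lowest for 53.8% and 39.4%. Of 16 ER genes, RECK/4NQ was the highest for 6 and Zeo for 9 (56.3%), where Zeo was the highest for 45.3% of all genes. Of 19 ATF4-driven genes, RECK/4NQ was the highest for 11 and Zeo for 5. After median centring RECK/4NQ was the highest for 9 of 16 ER genes and 12 of 19 ATF4-driven genes. After quantile normalisation it was the highest for 5 of 16 ER genes (31.3%) and 11 of 19 ATF4-driven genes (57.9%), against 33.1% of all genes. Over the 39 genes RECK/4NQ was then the highest for 48.7%, and RECK the lowest for 51.3%, against 37.2% of all genes. None of the 40 genes differed at least 2-fold from both other arrays while those lay within 1.5-fold of each other. STC2 fell just short, with RECK/4NQ 1.96-fold below Zeo.

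**Figure D4:**
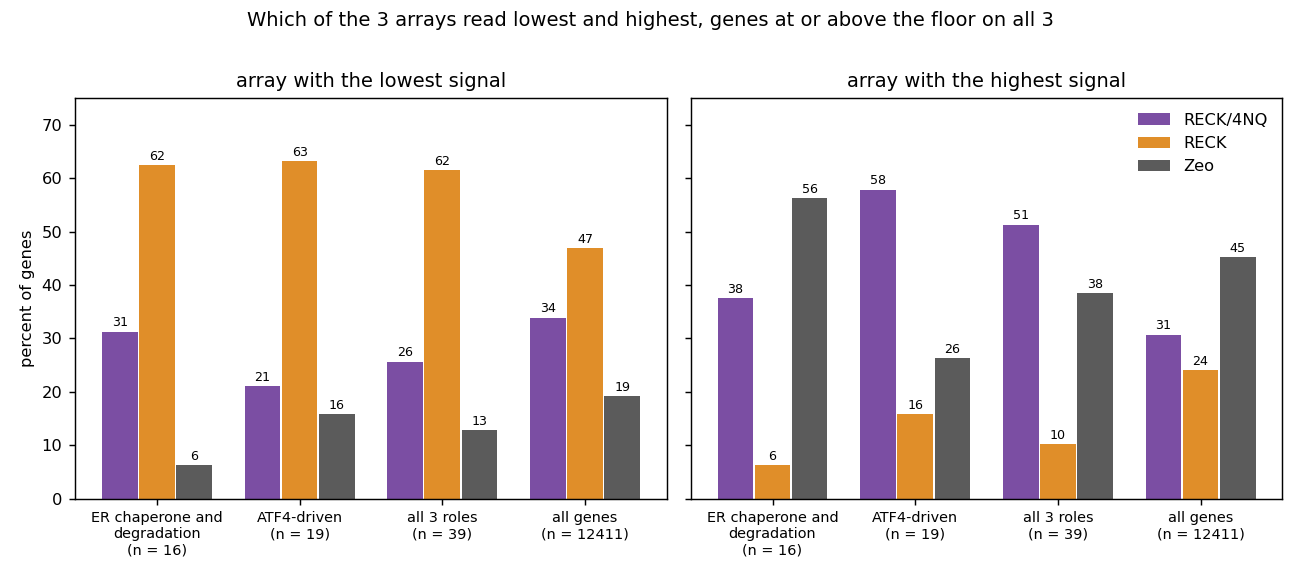
Percent of genes for which the RECK/4NQ, RECK or Zeo array had the lowest (left) or highest (right) signal, for 16 ER genes, 19 ATF4-driven genes, the 39 genes of all 3 roles and all 12411 genes that reach the floor on every array. RECK is the lowest array for 61.5% of the 39 genes and 46.9% of all genes.

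Where a gene had further probe sets above the floor throughout, these gave the same direction as the brightest in 20 of 29 cases (69%) for RECK/4NQ over RECK, 22 of 29 (75.9%) for RECK over Zeo and 16 of 29 (55.2%) for RECK/4NQ over Zeo. Among all genes these shares were 65.4%, 66.5% and 63.0%.

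Other genes of the pathways were listed separately from the 41. Of 22 further ER folding and degradation genes, such as the disulfide isomerases PDIA3 and P4HB, none was past 2-fold in any comparison. Their median relative to all genes was -0.02 for RECK/4NQ over RECK and 0.06 for RECK over Zeo. The ER genes among the 41 had 0.32 and -0.32. Of 22 further amino acid response genes, the leucyl-tRNA synthetase gene LARS1 was past 2-fold lower in RECK/4NQ than in both other lines, at 66.5 in RECK/4NQ, 176 in RECK and 135 in Zeo. This is 1 of 4 LARS1 probe sets and a shared one (ID ending in _x_at), and the readings of the others are not given here. The hormone gene FGF21 was below the floor in RECK/4NQ and RECK and at 28.8 in Zeo, at least 2.36-fold lower in both. The median of this list for RECK/4NQ over RECK was 0.29 relative to all genes. Of 14 further sensors and regulators, 1 was higher in RECK/4NQ than in RECK and 1 lower. Their median for RECK/4NQ over RECK, over the 13 with a mean level at the floor or above, was -0.03 relative to all genes. The 5 sensors among the 41 had 0.59, which is the ratio of ATF6 by its brightest probe set. ATF6B, the paralog of ATF6, read 84.9 in RECK/4NQ, 40.4 in RECK and 57.3 in Zeo. CREB3L1, an ER-bound transcription factor of collagen-secreting cells, read 216, 663 and 390, 3.07-fold lower in RECK/4NQ than in RECK. ATF6B has 3 probe sets and CREB3L1 has 2, and only the brightest of each is given here.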

How the data were processed

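Total RNA of 3 HT1080 lines was labelled with biotin and hybridised to Affymetrix arrays, 1 per line, per the labels' protocols. The authors deposited 1 linear intensity per probe set, made with MAS5 per the submitters' processing notes. No version or scaling target of MAS5 was found in those notes. Of 54675 probe sets, 62 were controls, 41091 had 1 gene symbol, 1801 several and 11721 none listed; 41037 matched a current RefSeq gene.

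The floor, the brightest probe set (highest mean log2 signal) and the spreads were computed from all 3 arrays with Python 3.11.15, numpy 2.4.6 and pandas 2.3.3. A gene counted as past 2-fold when both signals reached the floor, or when only 1 did and was at least 2 times the floor, in which case the fold is a lower bound. The depth of an array has no count, so the number of arrays limits the precision. The members, lists and rules were chosen with earlier results of these data known. Genes described are all called members, all sensors, and the 4 highest and 4 lowest ratios per role and comparison; other members were added by value or range. Alternatives were 2 scalings, 2 floors, 2 probe set rules, a 1.5-fold threshold and subtraction of the median of neighbouring genes or of genes near in level.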

Additional observations from a re-analysis of the deposited data

How the results depend on the processing

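No test was possible with 1 array per line, so the alternatives show only how far values moved. As deposited, 5 members were past 2-fold for RECK/4NQ over Zeo, 3 for RECK over Zeo and 5 for RECK/4NQ over RECK. For RECK/4NQ over Zeo this count was 2 with quantile normalisation (ASNS and DDIT4), median centring (WARS1 and DDIT4), all probe sets averaged (MTHFD2 and DDIT4) and without shared probe sets (DNAJC3 and CANX), and 10 at 1.5-fold. For RECK over Zeo it was 4 with all probe sets averaged (HSP90B1, MTHFD2, DDIT4 and XBP1, without ASNS and ATF3), 0 without shared probe sets and 11 at 1.5-fold. For RECK/4NQ over RECK it was 3 with quantile normalisation and without shared probe sets, and 15 at 1.5-fold. Leaving out shared probe sets removed 9 members, DDIT4, SDF2L1, SEL1L and HYOU1 among them, and left ASNS and HERPUD1 with a probe set below the floor. The median relative to all genes for RECK/4NQ over Zeo was 0.029 with all probe sets averaged, that for RECK over Zeo was -0.099 without shared probe sets, and that for RECK/4NQ over RECK was 0.22 with all probe sets averaged and 0.23 after the median of genes near in level was subtracted, an alternative chosen after seeing the data. These medians over all members did not change sign under any alternative run. Medians by role were recomputed only against genes near in level. The ER median for RECK/4NQ over Zeo then went from 0.04 to -0.05, and the ATF4-driven median for RECK over Zeo from 0.02 to -0.006. For RECK/4NQ over RECK the ER median went from 0.32 to 0.20. Of 813 recomputed log2 ratios of single members, 53 moved by more than their spread and none that was past 2-fold as deposited changed sign. Averaging lets probe sets below the floor pull a gene's ratio. MTHFD2, not past 2-fold as deposited, then turned to 1.34 in RECK/4NQ over Zeo and 1.29 in RECK over Zeo, with a second probe set at 27.2, 23.3 and 3.54 in RECK/4NQ, RECK and Zeo. ASNS for RECK over Zeo then had -0.30, and HERPUD1 for RECK/4NQ over RECK 0.20. Signals near the floor limit what can be said of EIF2AK3, DNAJB9, HSP90B1, DNAJC3 and SEL1L.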
